A study of Homo sapiens with 4 samples.

Results

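The genes followed here build cholesterol and fatty acids or control that synthesis. The list holds 36 genes tied to the sterol-responsive factors SREBP or LXR, including the genes of the factors and of their regulators. Out of 58037 genes in the count table, these 36 were taken by symbol. Of these, 34 were among the 15718 genes with enough reads to test, and ABCG1 and ELOVL6 were not. OCI-AML3 is an established human acute myeloid leukemia (AML) line with heterozygous mutations of NPM1 and DNMT3A and a homozygous NRAS mutation. Both conditions share the DNMT3A and NRAS background of the line, whereas mutant NPM1 was the target of the editing. Cells were transfected with sgRNA Ctrl (sgNeg in the labels, 2 libraries) or with sgNPM1A, a guide directed at mutant NPM1 (mtNPM1 KO, 2 libraries), and collected 3 days later. Both conditions were cultured in medium with fetal bovine serum. The sources used here state no selection of edited clones, so each library is taken as a transfected population. The labels name 1 guide for each condition, while the study in places speaks of guides in the plural. The comparison asks which transcripts change when mutant NPM1 is edited.

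Cholesterol is made from acetyl-CoA through mevalonate, the isoprenoids, squalene and a chain of sterol intermediates. The SREBP factors sit in the endoplasmic reticulum with the escort protein SCAP, are held there by the INSIG proteins while sterols are plentiful, and once released and cleaved they switch on the genes of cholesterol and fatty acid synthesis and uptake. The LXR receptors sense oxidized sterols and switch on cholesterol export, and in leukemia cells the isoprenoid branch also supplies the lipid anchors of RAS-family proteins.

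The DNA just upstream of these genes is shown first, since SREBP and its partner NF-Y are known to bind near the starts of their targets; binding was not measured here. For 31 of the 36 genes RefSeq (GRCh38.p14) gave a gene start and the 250 bases before it; ACAT2, FDFT1, SQLE, ABCG1 and FASN had no entry in the table used. The sequence below of SREBF2, the gene of the SREBP that mainly drives cholesterol synthesis, spans chr22:41832855-41833104 on the plus strand. It is the single window of the 31 with an exact match to the sterol regulatory element letters searched. The others belong to the 3 called genes with the largest fold among those with an NF-Y box (NF-Y is a partner of SREBP) and with a window clear of annotated genes, a choice made with the values known. They are EBP (chrX:48521558-48521807, plus strand), MSMO1 (chr4:165327419-165327668, plus strand) and MVD (chr16:88663092-88663341, minus strand). Each runs 5′ to 3′ toward the gene, and capitals mark the sterol regulatory element and the NF-Y boxes, which read ATTGG where they lie on the other strand.
SREBF2: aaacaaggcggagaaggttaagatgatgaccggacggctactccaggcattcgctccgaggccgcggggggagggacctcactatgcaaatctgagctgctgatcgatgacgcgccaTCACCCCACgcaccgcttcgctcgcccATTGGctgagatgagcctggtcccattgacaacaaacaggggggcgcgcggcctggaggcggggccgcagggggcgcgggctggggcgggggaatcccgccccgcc
EBP: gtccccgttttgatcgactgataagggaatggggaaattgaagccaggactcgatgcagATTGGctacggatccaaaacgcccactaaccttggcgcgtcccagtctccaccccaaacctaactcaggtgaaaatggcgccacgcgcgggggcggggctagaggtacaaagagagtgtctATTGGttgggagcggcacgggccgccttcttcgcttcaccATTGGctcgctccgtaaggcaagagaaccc
MSMO1: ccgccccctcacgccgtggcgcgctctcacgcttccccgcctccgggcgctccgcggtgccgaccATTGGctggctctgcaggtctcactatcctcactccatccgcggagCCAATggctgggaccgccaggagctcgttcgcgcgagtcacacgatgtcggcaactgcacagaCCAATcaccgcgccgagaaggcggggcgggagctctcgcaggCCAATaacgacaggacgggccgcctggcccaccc
MVD: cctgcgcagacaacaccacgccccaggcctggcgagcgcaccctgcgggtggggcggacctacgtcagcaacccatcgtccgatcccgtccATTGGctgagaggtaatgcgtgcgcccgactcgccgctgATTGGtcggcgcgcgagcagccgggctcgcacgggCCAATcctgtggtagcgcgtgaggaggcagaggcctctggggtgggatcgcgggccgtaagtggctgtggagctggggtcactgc

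An NF-Y box (CCAAT, either strand) was found in 18 of the 31 windows, against 32% of 35116 RefSeq promoter windows of the same length and 32.6% of the windows of 15620 tested genes. Among the 15 genes of the mevalonate and sterol enzymes with a window, 12 had at least 1 box. MVK and NSDHL had 5 each, MSMO1 had 4, and MVD, FDPS and EBP had 3; in NSDHL a pair of boxes on opposite strands overlapped. By outcome in the comparison below, the box was in 12 of 17 genes that rose and in 6 of the 14 others. The sterol regulatory element searched, TCACNCCAC on either strand, was in SREBF2 alone, from 133 to 125 bases before its start and not overlapping its NF-Y box; 0.883% of all windows held it. The GC box GGGCGG was in 28 of 31 windows and in 62.3% of those of tested genes, and the E-box CACGTG was in 4 (SC5D, INSIG1, SCAP and ABCA1), against 8.35%. The LXR motif DR4, AGGTCA repeated after a gap of 4 bases, was in 0 of 31 windows and in 0.0142% of all windows. These are exact matches of letters in a window set by 1 start per gene. Variant forms of the motifs were not searched, so a window without a match may still hold such an element.

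**Figure D1:**
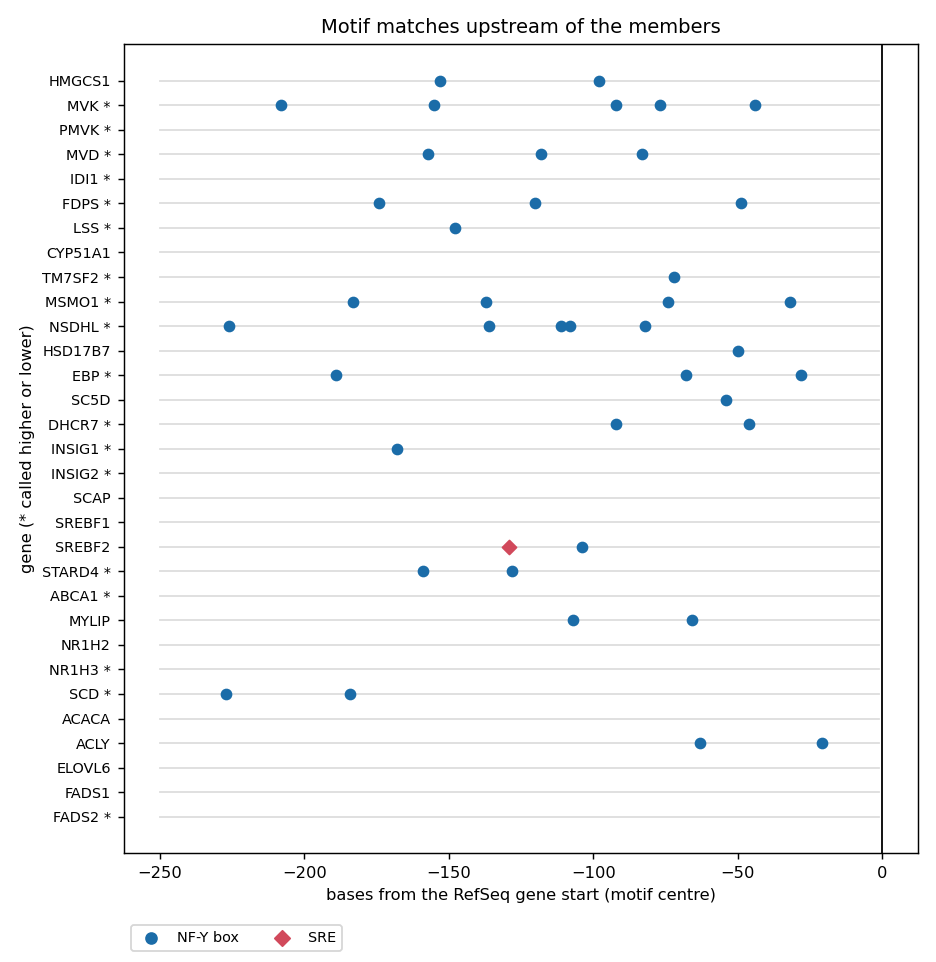
Position of NF-Y boxes (circles) and the sterol regulatory element (SRE, diamond) in the 250 bases upstream of 31 genes, as bases before the RefSeq gene start; an asterisk marks genes called higher or lower. Boxes fell in 18 windows, most densely in MVK, NSDHL and MSMO1, and the only exact match to the SRE letters searched was in SREBF2.

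Total counts per library ranged from 25069484 to 28276391. Levels are given as CPM (counts scaled to a common library total, with TMM normalization), the 1st value of each pair being library 1, and 3 counts, the limit for a gene seen at 0, correspond to between 0.106 and 0.12 CPM. NPM1, the targeted gene, was at 1319 and 1385 CPM with sgRNA Ctrl and at 1189 and 1132 CPM with sgNPM1A. The sgNPM1A libraries were lower without overlap, with a log2 fold change of -0.22 ± 0.07 (SE) and an adjusted p of 0.036, and the fold of 0.858 was short of the threshold below. These counts add the mutant and normal alleles. Of 10 myeloid and AML blast markers, 8 had at least 10 counts in every library, whereas KIT (at most 2 counts) and CD34 (at most 9) did not. The summed level of these markers was 1100 to 1130 CPM in the control and 1380 to 1390 CPM in the sgNPM1A libraries. SPI1 gave the largest part of that rise, at 452 and 494.9 CPM against 675.6 and 643.4 CPM. ANPEP, MPO, FLT3 and CSF1R were also higher without overlap, whereas CD33, PTPRC and CEBPA overlapped between conditions. The part of these markers in the results below was not tested. Of the T and NK, B, erythroid, megakaryocyte and fibroblast or epithelial markers, 3 of 4, 1 of 3, 3 of 4, 2 of 3 and 1 of 4 had at most 3 counts in any library. The last list, in which EPCAM was at 0, summed to 29.6 to 31.3 CPM in the control and 10 to 13.6 CPM in the sgNPM1A libraries, mostly COL1A2. In bulk RNA, fewer cells of a type and less RNA per cell cannot be told apart.

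Most of the cholesterol pathway was higher after mtNPM1 KO, while the enzymes of fatty acid synthesis were mostly not called. A gene was called at an adjusted p below 0.05 (edgeR quasi-likelihood test, Benjamini-Hochberg adjustment over all 15718 genes) and a log2 fold change of at least 0.32 in size. By that rule 20 of the 34 tested genes rose, against 10.5% of all genes, 1 fell, against 10.3%, and 13 were not called. With no fold threshold, 22 passed in the upward direction, against 12.9% of all genes. Both sgNPM1A libraries lay above both controls for 27 genes, against 31.4% of all genes, and below both for 1 gene, against 31.7%; the groups overlapped for 6. The median log2 fold change was 0.40 (range -0.66 to 1.24), and that of all genes was 0.0002. Nothing in the labels says that libraries of a condition came from separate cultures, although the study calls them biological replicates, so the p-values measure only the spread between these libraries. An exact two-sided permutation test of 2 against 2 cannot go below 0.333.

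**Figure D2:**
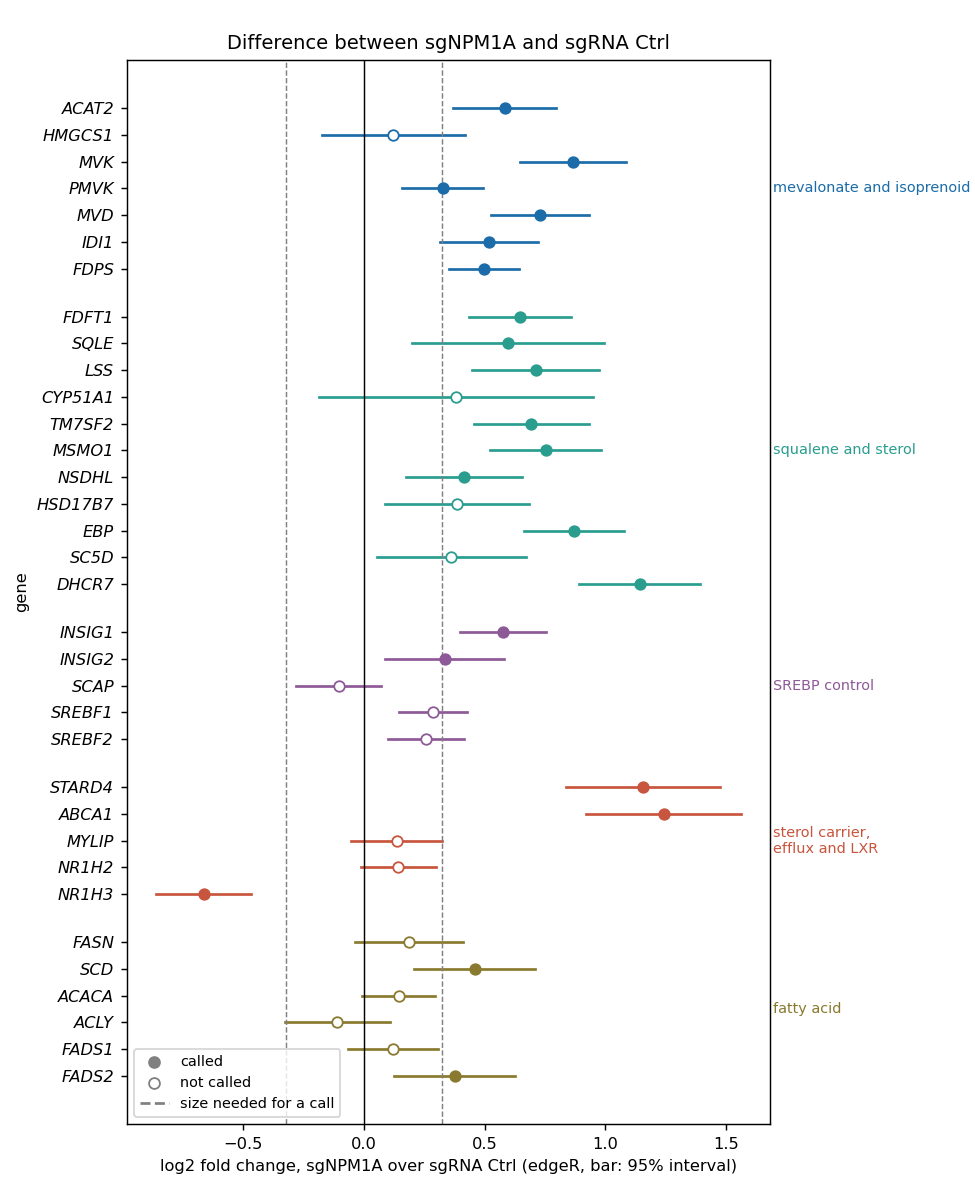
Log2 fold change of the 34 tested genes, sgNPM1A over sgRNA Ctrl, by role; bars are 95% intervals from edgeR's quasi-likelihood fit, filled circles are called and dashed lines mark the size a call needs, 0.32. ABCA1, STARD4 and DHCR7 lie farthest to the right, and NR1H3 is the single called gene to the left of 0.

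The enzymes that carry acetyl-CoA to farnesyl diphosphate rose together. Of the 7, 6 were called higher (against 10.5% of all genes) and 0 lower (against 10.3%), with a median log2 fold change of 0.52. Their summed level was 357.9 and 321.2 CPM in the control and 471 and 501.4 CPM in the sgNPM1A libraries. MVK (chr12:109573272-109598125 in GRCh38), the kinase that phosphorylates mevalonate, was at 14.1 and 14.4 CPM in the control libraries and at 24.5 and 27.4 CPM in the sgNPM1A libraries. The groups stood well apart and the libraries within each lay close together. The log2 fold change of MVK was 0.87 ± 0.10 (adjusted p = 8.26e-05), the largest change of these 7. MVD, the decarboxylase that yields isopentenyl diphosphate, was at 62 and 51.1 CPM against 91.2 and 96.4 CPM. Both sgNPM1A libraries were higher, and the log2 fold change was 0.73 ± 0.09 (adjusted p = 0.000164).

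ACAT2, the cytosolic thiolase at the head of the pathway, was at 38.5 and 33 CPM in the control and 50.3 and 56.8 CPM in the sgNPM1A libraries. The groups did not overlap, and ACAT2 rose by 0.58 ± 0.10 (adjusted p = 0.0011). IDI1, the isopentenyl diphosphate isomerase, was at 55.9 and 46.6 CPM against 71.1 and 75.6 CPM. Every sgNPM1A value exceeded every control value, and IDI1 rose by 0.52 ± 0.09 (adjusted p = 0.00176). FDPS, which joins the units into farnesyl diphosphate, was at 108.5 and 103.6 CPM against 147.8 and 151.6 CPM. Replicates were close and the groups apart, and FDPS rose by 0.50 ± 0.07 (adjusted p = 0.000237).

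PMVK, the next kinase after MVK, was at 43.4 and 45.7 CPM in the control and 55.6 and 56.1 CPM in the sgNPM1A libraries. The sgNPM1A pair was higher by a log2 fold change of 0.33 ± 0.08 (adjusted p = 0.00889), which lay at the threshold. PMVK was no longer called without sgRNA Ctrl 1 (0.29), without sgNPM1A 1 (0.34, adjusted p = 0.0754) or without sgNPM1A 2 (0.32, adjusted p = 0.0983). HMGCS1, which condenses acetyl-CoA with acetoacetyl-CoA, was the exception of the group. It was at 35.6 and 26.8 CPM in the control and 30.4 and 37.5 CPM in the sgNPM1A libraries, so the conditions interleaved. Its log2 fold change of 0.12 had a 95% interval from -0.17 to 0.42 (adjusted p = 0.555), and its sign turned without sgRNA Ctrl 2 (-0.067) and without sgNPM1A 2 (-0.034).

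Genes on the opposite strand share exon bases with some of these enzymes, and the strand setting of the counting was not given in the sources used here, so reads of such partners cannot be told apart. The share was 37.7% for HMGCS1, 22.2% for ACAT2, 18.6% for FDPS, 15% for IDI1 and 2.5% for MVK. TCP1, the main partner of ACAT2 and a chaperonin subunit, was at 408.7 and 370.6 CPM in the control and 403 and 421.4 CPM in the sgNPM1A libraries, with overlapping groups. MMAB, the head-to-head neighbour of MVK and an enzyme of vitamin B12 metabolism, was at 18.6 and 19 CPM against 35.6 and 35.1 CPM and rose by 0.91 ± 0.09 (adjusted p = 1.8e-05). Both neighbours were picked after their values were seen.

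In the branch from farnesyl diphosphate to cholesterol, 8 of 11 enzymes rose, against 10.5% of all genes. In that branch 0 fell, against 10.3%, and the median log2 fold change was 0.65. For 10 of the 11, both sgNPM1A libraries were above both controls. The summed level was 455.8 and 354.6 CPM in the control and 626.1 and 695.5 CPM with sgNPM1A. DHCR7 (chr11:71427287-71449043), the reductase of the last step to cholesterol, was at 48.5 and 37.2 CPM in the control and 88.5 and 100.6 CPM in the sgNPM1A libraries. The lowest sgNPM1A value was well above the highest control value. DHCR7 rose 2.21-fold (log2 fold change 1.14 ± 0.11, adjusted p = 2.9e-05), the largest change among the enzymes of the list.

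EBP (chrX:48521808-48528716), the sterol isomerase, was at 20.1 and 17.8 CPM in the control libraries and 34 and 35.2 CPM in the sgNPM1A libraries. The separation was clear, and EBP rose by 0.87 ± 0.09 (adjusted p = 4.95e-05). MSMO1, the methylsterol oxidase of sterol demethylation, was at 16.6 and 14.1 CPM against 26.1 and 25.5 CPM. It too separated by condition and rose by 0.75 ± 0.10 (adjusted p = 0.000322). TM7SF2, a sterol C14 reductase, was at 10.3 and 11.2 CPM against 17.1 and 17.7 CPM. The pairs were tight and apart, and the log2 fold change was 0.69 ± 0.11 (adjusted p = 0.000712).

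The early steps of the branch moved in the same direction. FDFT1, squalene synthase, was at 165.7 and 135.3 CPM in the control and 221.2 and 250.5 CPM in the sgNPM1A libraries. No values overlapped, and FDFT1 rose by 0.65 ± 0.10 (adjusted p = 0.000512). LSS, which closes squalene epoxide into lanosterol, was at 81.6 and 59 CPM against 113.6 and 116.7 CPM. The controls were spread more widely than the sgNPM1A pair, and the log2 fold change was 0.71 ± 0.12 (adjusted p = 0.00119).

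SQLE, the squalene epoxidase and a rate-limiting enzyme of the branch, was at 65.3 and 39.3 CPM in the control and 70.6 and 87.6 CPM in the sgNPM1A libraries. The higher control reached nearly to the lower sgNPM1A library. SQLE rose by 0.60 ± 0.18 (adjusted p = 0.0316), but without sgRNA Ctrl 2 the difference was 0.28 and not called (adjusted p = 0.135). NSDHL, a dehydrogenase of sterol demethylation, was at 28.8 and 23 CPM against 33.2 and 35.9 CPM. Its log2 fold change was 0.41 ± 0.11 (adjusted p = 0.016), while it was 0.26 without sgRNA Ctrl 2 and 0.36 without sgNPM1A 2, called in neither case.

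The remaining genes of the branch, 3 in number, were not called over all libraries. HSD17B7, a sterol ketoreductase, was between 7.4 and 8.61 CPM in the control and between 9.72 and 11.2 CPM with sgNPM1A, a log2 difference of 0.39 (95% interval 0.09 to 0.68, adjusted p = 0.0585). SC5D, the sterol desaturase, lay between 7.68 and 9.01 CPM and between 9.79 and 11.7 CPM (0.36, interval 0.06 to 0.67, adjusted p = 0.0793). Both had sgNPM1A libraries above the controls. HSD17B7 was called without the filter on low counts (0.38, adjusted p = 0.0353) and without sgRNA Ctrl 2 (0.50, adjusted p = 0.0475), and SC5D without sgNPM1A 1 (0.49, adjusted p = 0.0469). Leaving out a library otherwise gave 0.28 to 0.49 for HSD17B7 and 0.23 to 0.48 for SC5D, not called. CYP51A1, the lanosterol demethylase, had from 40 to 83 counts per library and overlapping groups, with a difference of 0.38 (interval -0.19 to 0.95, adjusted p = 0.315) that was 0.77 without sgRNA Ctrl 1, 0.07 without sgRNA Ctrl 2, 0.56 without sgNPM1A 1 and 0.18 without sgNPM1A 2. Whether reads of CYP51A1 were lost to other genes cannot be told, since the annotation release behind the counts was not given. Of the 50-base words of its transcripts, 67.5% also occur in other genes, mainly overlapping annotated genes on the same strand. That share was 31.4% for EBP, whose partner was not a row of the table, and 14.2% for HSD17B7, shared mainly with its pseudogene HSD17B7P2.

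**Figure D3:**
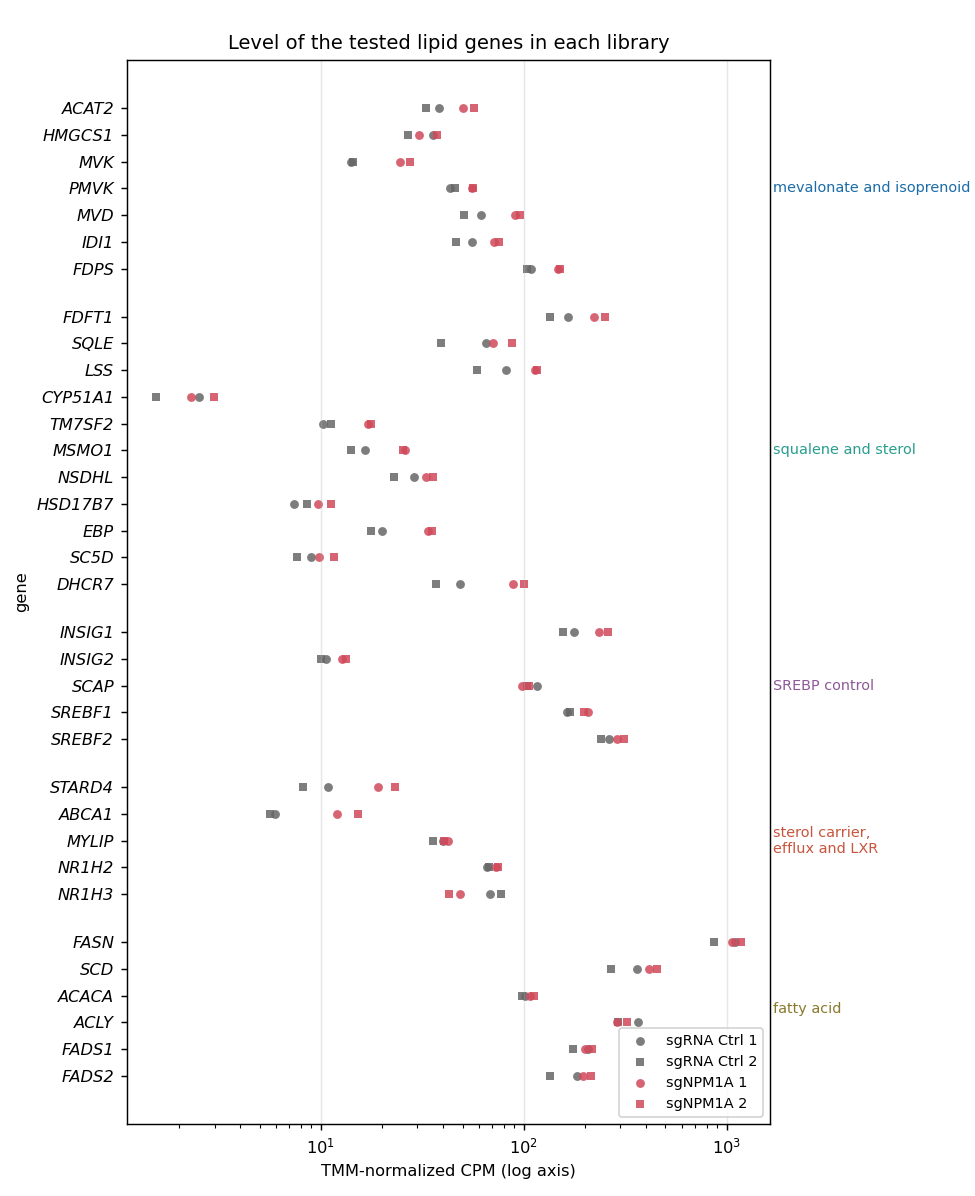
TMM-normalized CPM (log axis) of the 34 tested genes in each library, grouped by role; gray is sgRNA Ctrl, red is sgNPM1A, circles are library 1 and squares library 2. DHCR7, ABCA1, STARD4, EBP and MVK show a wide gap between conditions, and in many rows the gray square is the lowest point and the red square the highest.

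Of the 5 genes that control SREBP, 2 rose (40%, against 10.5% of all genes) and 3 were not called. INSIG1 (chr7:155297878-155310235), the retention protein that is itself an SREBP target, was at 177.5 and 156 CPM in the control and 235.7 and 261.9 CPM in the sgNPM1A libraries. The conditions did not overlap, and INSIG1 rose by 0.58 ± 0.08 (adjusted p = 0.000336). INSIG2, the second retention protein, was at 10.6 and 10.1 CPM against 12.8 and 13.3 CPM. The pairs separated, with a log2 fold change of 0.33 ± 0.11, but the adjusted p of 0.0491 was at the limit. INSIG2 was lost in 8 of 12 alternative settings, including each of the 4 that left out a library (differences from 0.30 to 0.37).

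The genes of the SREBP factors were higher with sgNPM1A by less than the fold threshold. SREBF2 (chr22:41833105-41907305) was at 263.3 and 241.1 CPM in the control and 289.6 and 313.7 CPM with sgNPM1A. SREBF1, the form tied more to fatty acid synthesis, was at 163.3 and 169.9 CPM against 207 and 199.4 CPM. In both genes every sgNPM1A value was above every control value. The log2 fold changes were 0.26 ± 0.07 for SREBF2 (fold 1.20, adjusted p = 0.0217) and 0.29 ± 0.06 for SREBF1 (fold 1.22, adjusted p = 0.00746). The SREBF2 difference was 0.32 and called without sgRNA Ctrl 1, but its adjusted p rose to 0.0779 without sgRNA Ctrl 2 (0.20), 0.058 without sgNPM1A 1 (0.32), 0.309 without sgNPM1A 2 (0.20) and 0.0592 with the replicate block. That of SREBF1 rose to 0.146 without sgNPM1A 1 (0.26) and 0.0649 without sgNPM1A 2 (0.32). SCAP, the escort, had overlapping groups at 116.7 and 103.4 CPM against 98 and 106.7 CPM, and its difference of -0.10 had an interval from -0.28 to 0.07 (adjusted p = 0.379).

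The group of sterol carrier, efflux and LXR genes held the largest changes in both directions. Of its 5 tested genes, 2 were higher (against 10.5% of all genes) and 1 lower (against 10.3%). The median log2 fold change was 0.14. ABCA1 (chr9:104781006-104928155), the pump that loads cholesterol onto apolipoprotein A-I and a classical LXR target, was at 5.94 and 5.64 CPM in the control and 12.1 and 15.3 CPM with sgNPM1A. The levels were low but the conditions were far apart. ABCA1 rose 2.36-fold (log2 fold change 1.24 ± 0.15, adjusted p = 9.29e-05), the largest fold of the list. STARD4 (chr5:111496033-111512535), a soluble sterol carrier and SREBP target, was at 10.9 and 8.22 CPM against 19.2 and 23.3 CPM. Its groups were also distinct, and it rose 2.23-fold (1.16 ± 0.15, adjusted p = 0.000153).

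NR1H3 (chr11:47248300-47269033), the gene of LXRα, was the single gene of the list that fell. It was at 68.2 and 77 CPM in the control and 48.6 and 43.1 CPM in the sgNPM1A libraries. Both sgNPM1A libraries were below both controls, at a log2 fold change of -0.66 ± 0.09 (fold 0.632, adjusted p = 0.000263). NR1H2, the gene of LXRβ, lay between 66.1 and 67.6 CPM and between 72.9 and 74.8 CPM, a difference of 0.14 (95% interval -0.01 to 0.30, adjusted p = 0.166). MYLIP, an LXR-induced ubiquitin ligase of lipoprotein receptors, lay between 35.7 and 40 CPM and between 40.7 and 42.4 CPM (0.14, interval -0.05 to 0.32, adjusted p = 0.281). ABCG1, the partner pump of ABCA1, had 5, 6, 16 and 2 counts in sgRNA Ctrl 1 and 2 and sgNPM1A 1 and 2. That was too few to test, and the sgNPM1A libraries gave both its highest and its lowest count.

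Of the fatty acid enzymes, 2 of 6 tested rose (33.3%, against 10.5% of all genes) and 0 fell (against 10.3%). The median log2 fold change was 0.16. Their summed level was 2323 and 1841 CPM in the control and 2274 and 2498 CPM with sgNPM1A, so that the conditions overlapped. SCD, the stearoyl-CoA desaturase, was at 360.8 and 268.1 CPM against 412.8 and 451.9 CPM. The conditions separated, and SCD rose by 0.46 ± 0.11 (adjusted p = 0.0121), but by 0.26 and below the fold threshold without sgRNA Ctrl 2. FADS2, the delta-6 desaturase, was at 182.5 and 135.1 CPM against 197 and 215.2 CPM. It rose by 0.38 ± 0.11 (adjusted p = 0.032), whereas the difference was 0.18 without sgRNA Ctrl 2 and 0.31 without sgNPM1A 2, not called in either case.

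FASN, fatty acid synthase, had 871 to 1103 CPM in the control and 1067 to 1178 CPM with sgNPM1A. The groups overlapped and the difference was 0.19 (95% interval -0.04 to 0.41, adjusted p = 0.211), while it was 0.36 and called without sgRNA Ctrl 1, 0.027 without sgRNA Ctrl 2 (adjusted p = 0.828) and 0.12 without sgNPM1A 2. ACLY, which makes cytosolic acetyl-CoA from citrate, had 292.9 to 366.4 CPM in the control and 288.2 to 322.7 CPM with sgNPM1A. Its difference was -0.11 (interval -0.33 to 0.11, adjusted p = 0.46) and was 0.059 without sgRNA Ctrl 1 and -0.26 without sgRNA Ctrl 2, not called in either case. ACACA, the acetyl-CoA carboxylase, differed by 0.14 (interval -0.01 to 0.29) and FADS1, the delta-5 desaturase, by 0.12 (interval -0.06 to 0.31), or 0.25 without sgRNA Ctrl 1 and 0.0056 without sgRNA Ctrl 2. ELOVL6, an elongase, had 2, 3, 1 and 1 counts in the 4 libraries and was not tested.

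Levels were also divided by exon length, with the exons of all annotated transcripts of a gene merged. That length can exceed the length of the transcripts expressed, so the order of genes depends on the annotation. By this measure FASN had the highest level of the list in both conditions, at a mean of 105.9 CPM per kb with sgRNA Ctrl and 120.4 with sgNPM1A. ACLY, SCD, INSIG1 and PMVK came next in the control, at 63.3, 60 (SD 12.5), 45.7 and 44.5 CPM per kb, and ACLY and SCD differed there by less than their spread. In the sgNPM1A libraries SCD was second at 82.4 (SD 5.27), followed by INSIG1 at 68.2 (SD 5.08), ACLY at 58.6 (SD 4.68) and PMVK at 55.8 CPM per kb. ABCA1 and STARD4, with the largest folds, were among the scarce transcripts, at 0.51 and 1.68 CPM per kb in the control and 1.21 and 3.75 with sgNPM1A.

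The genes of the list also differed together between libraries of the same condition. sgRNA Ctrl 1 was above sgRNA Ctrl 2 for 27 of 34 genes, and sgNPM1A 2 was above sgNPM1A 1 for 30. Both held for 25 genes (73.5%), against 32% of all tested genes. The median log2 difference was -0.22 for control 2 minus control 1 and 0.12 for sgNPM1A 2 minus sgNPM1A 1, where all genes had 0.0014 and 0.0033. All 6 tested fatty acid genes followed the pattern, and SQLE had the widest control difference, -0.73, with 0.31 between the sgNPM1A libraries. NR1H3, the gene that fell, differed the opposite way, by 0.18 and -0.17. The median log2 fold change of the list was 0.32 with sgRNA Ctrl 2 left out and 0.36 with sgNPM1A 2 left out. It was 0.58 with sgRNA Ctrl 1 left out and 0.50 with sgNPM1A 1 left out. Over all genes the median lay between -0.0044 and 0.0081 in these fits. The genes share libraries and are not replicates of each other.

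**Figure D4:**
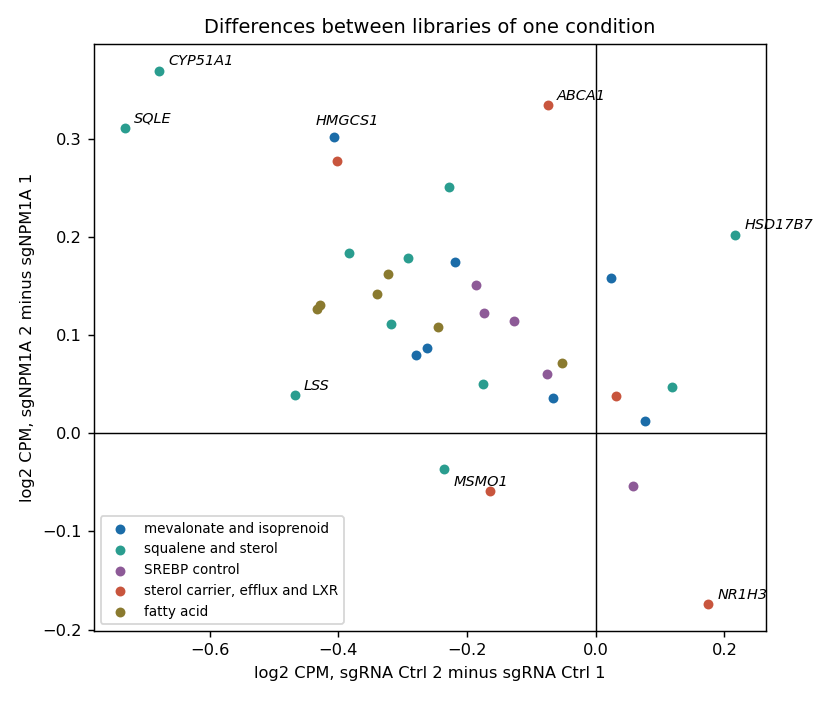
For each of the 34 tested genes, the log2 CPM difference between the sgRNA Ctrl libraries (2 minus 1, horizontal) and between the sgNPM1A libraries (2 minus 1, vertical), colored by role. The upper left quadrant holds 25 genes, SQLE and CYP51A1 farthest out, and NR1H3 lies in the opposite corner.

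Other genes of the same lipid pathways were counted from lists written by function. Of 151 listed genes that are not among the 36, 134 were tested, of which 23 rose (17.2%, against 10.5% of all genes) and 7 fell (5.22%, against 10.3%), with a median log2 fold change of 0.11. Of 15 other genes of isoprenoid and sterol synthesis, 3 rose (20%, against the same 10.5%) and 0 fell (against 10.3%), with a median of 0.18. ERG28, a scaffold of sterol demethylation, rose by 0.61 (adjusted p = 0.00056), PDSS1, which makes the tail of coenzyme Q, by 0.57 (adjusted p = 0.000703), and NUS1, a subunit of the enzyme for dolichol synthesis, by 0.36 (adjusted p = 0.0304).

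Among 13 other genes of SREBP processing and turnover, 3 rose (23.1%, against 10.5% of all genes) and 1 fell (7.69%, against 10.3%). The median log2 fold change was -0.02 (rounded from -0.015). ERLIN1 and ERLIN2, endoplasmic reticulum proteins that bind cholesterol and restrain SREBP, rose by 0.61 (adjusted p = 4.53e-05) and 0.78 (adjusted p = 4.88e-05). ERLIN2 was at 60.4 and 52 CPM in the control and 94.5 and 98.1 CPM with sgNPM1A, without overlap. HSP90B1, an endoplasmic reticulum chaperone, rose by 0.35 (adjusted p = 0.00458). Of 19 tested genes of intracellular cholesterol handling, 2 rose (10.5%, the share of all genes) and 0 fell (against 10.3%). LIPA, the lysosomal lipase of cholesteryl esters, rose by 0.82 (adjusted p = 0.000218). GRAMD1B, a sterol transporter at membrane contacts, rose by 1.72 ± 0.41 (adjusted p = 0.00999) on 5 and 15 against 38 and 34 counts. Of the oxysterol enzymes 3 were tested and 0 called (edgeR quasi-likelihood test), against 10.5% of all genes higher and 10.3% lower.

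The list of other LXR target genes and partners had 6 of 17 tested genes higher (35.3%, against 10.5% of all genes) and 1 lower (5.88%, against 10.3%). Its median log2 fold change was 0.27. LPL, lipoprotein lipase, was at 3.93 and 2.63 CPM in the control and 25.8 and 35.8 CPM in the sgNPM1A libraries. The conditions differed many-fold, and the log2 fold change of LPL was 3.23 ± 0.20 (adjusted p = 7.66e-07). CD36, a scavenger receptor that is also a monocyte surface protein, rose by 0.82 (adjusted p = 2.74e-05) and MERTK, a phagocytic receptor kinase, by 1.07 (adjusted p = 0.000146). CCND1, a cyclin of the cell cycle and not a lipid gene in its own right, fell by 0.76 (adjusted p = 8.32e-05). Several of these genes are also expressed by monocytes and macrophages. The summed myeloid markers were higher in the sgNPM1A libraries (1380 to 1390 against 1100 to 1130 CPM), with SPI1 giving the largest part of the rise. Not every marker rose, since CD33, PTPRC and CEBPA overlapped between conditions. The part of the markers in these differences was not tested.

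Of 24 other genes of fatty acid synthesis, elongation and desaturation, 3 rose and 3 fell (12.5% each, near the 10.5% and 10.3% of all genes), with a median log2 fold change of 0.14. ACSS2, which makes acetyl-CoA from acetate and is an SREBP target, was at 17.5 and 17 CPM in the control and 38.3 and 42.9 CPM with sgNPM1A. The controls were nearly equal and far below, and ACSS2 rose by 1.23 ± 0.09 (adjusted p = 3.6e-06). ELOVL3, an elongase near 1 CPM in the control, rose by 1.66 (adjusted p = 0.00194), and HACD1, a dehydratase of elongation, by 0.70 (adjusted p = 0.0301). SCD5, the second stearoyl-CoA desaturase, fell by 1.34 (adjusted p = 6.6e-05) whereas SCD rose. FADS3, a sphingoid base desaturase, fell by 0.51 (adjusted p = 0.00148), and ELOVL1, an elongase of very long chains, fell by 0.35 (adjusted p = 0.00548).

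In the use of fatty acids, 4 of 21 genes of activation and glycerolipid synthesis rose (19%, against 10.5% of all genes). In that list 0 fell, against 10.3% of all genes, and the median log2 fold change was -0.01. DGAT2, which makes triglyceride, rose by 0.95 (adjusted p = 0.000109), and ACSL1 and ACSL3, acyl-CoA synthetases, by 0.44 (adjusted p = 0.00219) and 0.42 (adjusted p = 0.00728). Of 22 genes of fatty acid oxidation, 2 rose and 2 fell (9.09% each, near the 10.5% and 10.3% of all genes), with a median of 0.20. ACADM, the medium-chain dehydrogenase, rose by 0.61 (adjusted p = 0.000512) and ECI1, an enoyl-CoA isomerase, by 0.49 (adjusted p = 0.000711). PPARA, a receptor that drives oxidation genes, fell by 0.53 (adjusted p = 0.00529), and CPT1A, the carnitine transferase of mitochondrial entry, fell by 0.39 (adjusted p = 0.0294).

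**Figure D5:**
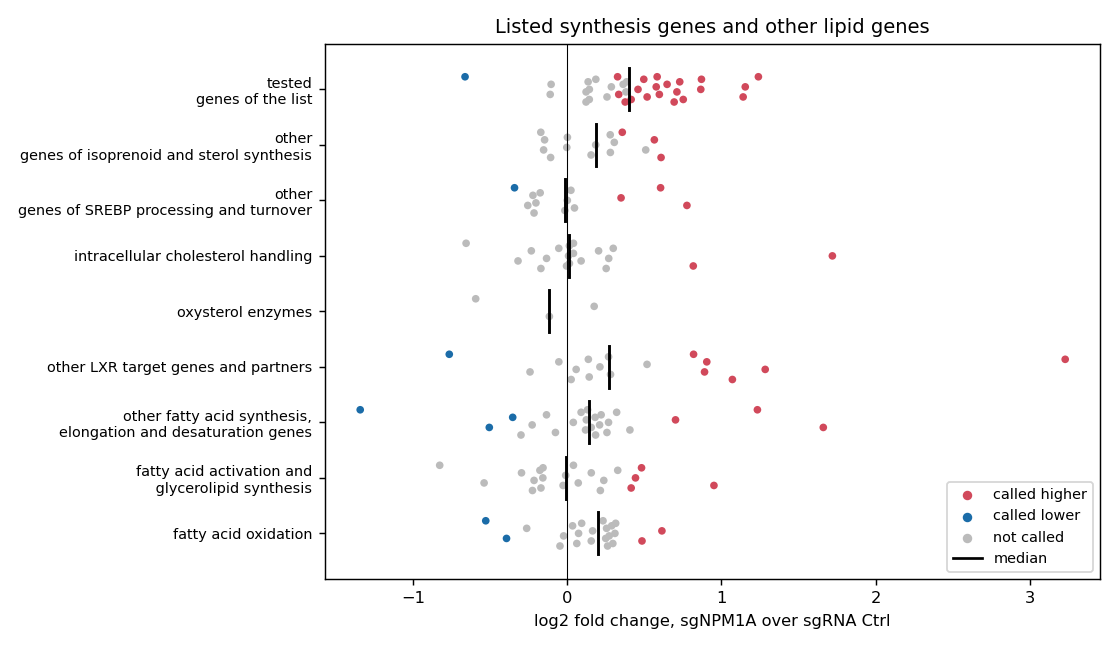
Log2 fold change, sgNPM1A over sgRNA Ctrl, of the 34 tested genes of the list and of 134 other tested lipid genes by list; each point is a gene, red called higher, blue called lower, and black bars are medians. The median of the cholesterol and fatty acid synthesis genes, 0.40, lies to the right of the medians of the other lists, of which the highest is 0.27 for LXR targets and partners.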

How the data were processed

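RNA-Seq was performed on total RNA of OCI-AML3 cells 3 days after transfection, 2 libraries per condition. Alignment to hg38 used STAR and Samtools, and the table the authors deposited holds unnormalized read counts for each Ensembl gene. The counting program, its strand setting and the annotation release are not given in the sources used here. Symbols were matched by Ensembl identifier.

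Genes were filtered with filterByExpr (minimum count 10), scaled by TMM and tested with edgeR 4.0.16 (robust quasi-likelihood F test, two-sided, R 4.3.3) over 15718 genes with Benjamini-Hochberg adjustment, and called at an adjusted p below 0.05 and a log2 fold change of at least 0.32 in size, the fold threshold of the study. The common biological coefficient of variation was 0.0619. Log2 CPM per library used a prior count of 2. Depth was 25069484 to 28276391 counts per library, and floors cover counting error only. Scripts were tested on simulated data.

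Alternatives were DESeq2 1.42.0, limma 3.58.1, other scalings, filters and fold thresholds, a replicate block and leaving out each library. Exon lengths, overlaps and shared 50-base words came from GENCODE on GRCh37 and positions from RefSeq GRCh38.p14.

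The 36 genes and the lists were chosen with earlier results of these data known. Every gene of the 36 is given at least by its group's count. Values per library are given for called genes and for those with few counts. At most 3 called genes per other list and direction are named, those with the smallest adjusted p. The gene that fell among those of SREBP processing is counted but not reported here.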

Additional observations from a re-analysis of the deposited data

How the results depend on the processing

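The count of 20 cholesterol and fatty acid synthesis genes called higher was 16 with DESeq2, 20 with limma and 17 with library-size scaling. It was 18 without the filter and 11 at a fold of at least 1.5. Calls over all genes moved too, from 1653 higher to 1263 with DESeq2, 1648 with limma, 1433 with library-size scaling and 1787 without the filter. When a library was left out, the median log2 fold change of the list ranged from 0.32 to 0.58. The single lower gene, NR1H3, was called in each of the 12 settings in which single genes were followed. Of the 21 called genes, 15 were called in all 12, and PMVK, SQLE, NSDHL, INSIG2, SCD and FADS2 were lost in at least 1. HSD17B7, SC5D, SREBF2 and FASN were gained in at least 1. DESeq2 gave adjusted p-values of 0.327 for SQLE, 0.14 for SCD and 0.265 for FADS2. For other lipid genes, 23 higher and 7 lower became 37 and 11 with no fold threshold, 2 were lower at a fold of at least 1.5, and leaving out a library gave 19 to 26 higher and 5 to 9 lower. Signs turned for HMGCS1, which ranged from -0.067 to 0.34 when a library was left out, and ACLY, from -0.26 to 0.059, neither of them called over all libraries. The cause of these changes was not tested. The sources used here state no pairing of libraries by replicate number. Deviations of same-numbered libraries had a correlation of -0.13 over all genes and -0.523 over the 8856 genes above 10 CPM. With 2 libraries per condition these values cannot show how the libraries were prepared. With the replicate block, 19 genes of the list were higher and 1 lower, and 24 and 7 other lipid genes, INSIG2 being the call lost from the list (adjusted p = 0.113). Crossing the numbers, chosen after seeing the data, gave 22 higher in the list and 1955 higher over all genes. With 2 libraries per condition, small differences may have gone uncalled, and the stated intervals give the precision of each estimate. ABCG1 and ELOVL6 could not be tested at this depth.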
